A study of Mus musculus with 16 samples.

Results

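Collagens are the most abundant proteins of the extracellular matrix, and each collagen molecule is a triple helix of chains that separate genes encode. The transcripts of 42 collagen chain genes, of 17710 genes with a name on the array, were read on 16 arrays of mouse cells. A gene was a member if its symbol in the array's probe table had the form of a collagen chain (Col, a type number, a, a chain number), and 37 members had 1 probe and 5 had several. Where there were several, the probe with the highest mean over all arrays was used. By the structure of their proteins the members comprise 11 fibrillar chains, 6 chains of type IV, 9 fibril-associated chains with interrupted triple helices (FACIT), 5 chains of type VI, 3 short-chain network chains, 2 multiplexins, 4 transmembrane chains and 2 others, of types VII and XXVIII.

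All cells came from C57BL/6 mice with a genotype given as normal, and the labels give no age and the same culture medium (mTeSR, on Matrigel) for every sample. Matrigel is a basement membrane extract that itself contains type IV collagen protein, while the arrays read RNA. Heart Sca1 cells (3 arrays) were sorted for stem cell antigen 1 and for the absence of CD45, a leukocyte antigen, and CD31, an endothelial antigen. Heart c-kit cells (3 arrays) were selected by c-kit, a receptor tyrosine kinase of progenitor and mast cells, and heart side population cells (2 arrays) by how they pump out a Hoechst dye. From bone marrow came mesenchymal stem cells harvested after 5 passages (marrow MSC, 3 arrays) and marrow c-kit cells (3 arrays), selected by the same receptor. Cardiomyocytes (2 arrays), the contractile cells of the heart, were spun down at 100 rpm (1 min) and are labelled as the control. The labels do not say whether replicates were separate animals or cultures. The p-values set differences only against the scatter of arrays within groups, pooled over all 6 groups, and that scatter may be technical.

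Fibrillar collagens form the banded fibres that carry tension, and in the heart types I and III are made chiefly by fibroblasts. Type IV chains build the sheet-like network of basement membranes around muscle cells and vessels. Type VI forms beaded filaments close to the cell surface, and FACIT chains attach to the surface of fibrils. Several chains are needed for 1 molecule in many types, so the chains of a type are often transcribed together.

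Levels are given as log2 values after quantile normalisation, which gives every array the same distribution, and a level of 0 lies near the middle of an array. The level of a probe was compared only with the same probe on other arrays. The median spot intensity was 45 units or more on 13 arrays and 15 to 22 units on both side population arrays and heart c-kit replicate 2, so low levels are least certain there. Each array repeated a single lowest-range value at 3.38% to 13.8% of its probes, called the fill value here. Of the 42 members, 28 were at the fill value on no array. A collagen gene was called different if its p-value, from limma and adjusted over all 17710 genes, was under 0.05.

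Marker lists were read beside the collagens. The mean level of 7 fibroblast markers was 6.85 to 7.16 on the heart Sca1 arrays, 6.22 and 6.83 in side population cells, 0.75, 1.43 and 4.45 in heart c-kit cells, 0.79 to 1.84 in marrow MSC, -2.20 to -1.32 in marrow c-kit cells and 5.13 and 6.02 in cardiomyocytes. Of those 7, at most 2 were at the fill value on an array. The mean of 8 endothelial markers was 5.93 and 6.45 in cardiomyocytes and 4.14 to 5.15 in heart c-kit cells. It was 0.76, 2.14 and 5.06 in heart Sca1 cells, although CD31 was gated out, 0.57 and 1.19 in side population cells, -0.13 to 0.20 in marrow c-kit cells and -1.10 to -0.53 in marrow MSC. The mean of 7 leukocyte markers was 6.07 to 6.64 in marrow MSC and 4.62 to 5.77 in marrow c-kit cells, against -1.87 to 3.86 on the heart arrays. Ptprc, the gene of CD45, averaged 7.05 ± 0.43 in marrow MSC and 7.51 ± 1.09 in marrow c-kit cells (SD, n = 3 each), so the cells labelled as mesenchymal carried a defining leukocyte transcript. The mean of 5 cardiomyocyte markers was 6.84 and 6.85 in cardiomyocytes and at most 3.87 elsewhere. In such bulk samples fewer cells of a type and less RNA per cell cannot be told apart, and the part of admixed cells in the results below was not tested.

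Most collagen genes differed among the 6 cell groups. By limma's moderated F test, 28 of 42 members (66.7%) passed at an adjusted p under 0.05, against 31.9% of all genes. They were 10 of 11 fibrillar, 6 of 6 type IV, 4 of 5 type VI, 3 of 9 FACIT, 2 of 3 short-chain network, 1 of 2 multiplexin and 1 of 4 transmembrane genes, and 1 of the 2 others. Heart Sca1 cells held the highest mean for 14 of the 28, marrow MSC for 6, side population cells for 4, cardiomyocytes for 2 and both c-kit populations for 1 each. Marrow c-kit cells held the lowest mean for 13 of the 28, heart c-kit cells for 5, side population cells and marrow MSC for 4 each and heart Sca1 cells for 2. Of the 28 calls, 24 held with any single array left out. The calls of Col1a1 and Col5a3 were lost on leaving out 14 and 13 of the 16 arrays, that of Col7a1 on leaving out any of 3 MSC arrays and that of Col24a1 without MSC replicate 1.

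**Figure D1:**
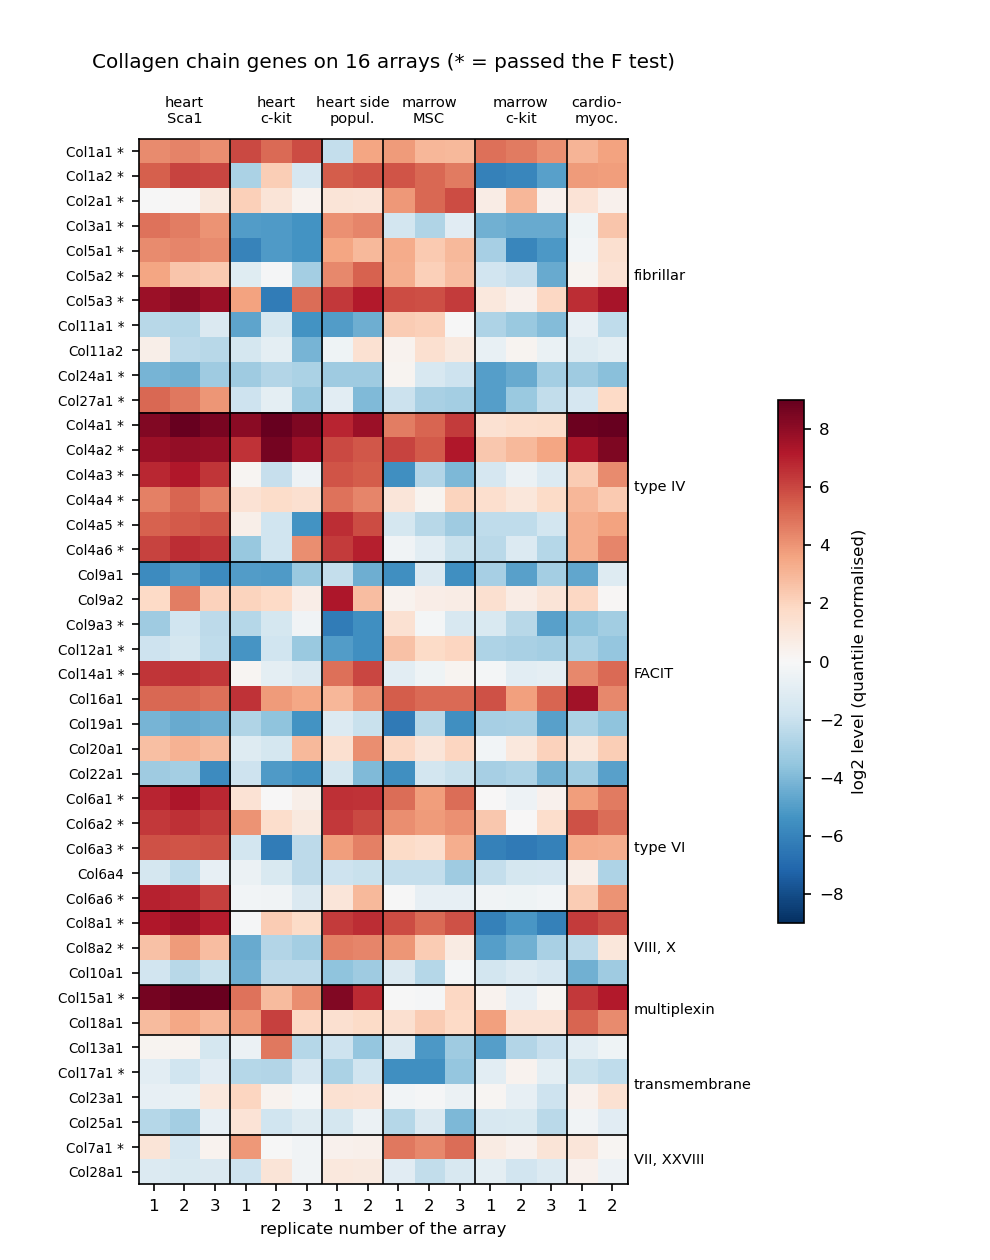
Log2 level of each of the 42 collagen chain genes (rows, grouped by structural class) on each of the 16 arrays (columns, grouped by cell population). Colours are to be read along a row, since probes differ in brightness, and an asterisk marks the 28 genes that passed the F test; most type IV, VI and VIII rows are darkest red in heart Sca1 and side population cells.

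Promoter windows are shown for 5 genes on which the results turn: Col1a2 and Col3a1, of which marrow MSC had the first near the level of heart Sca1 cells and the second far below it, the neighbours Col4a1 and Col4a2, whose group means ran together, and Col4a4, which followed another pattern. Each runs from 250 bases before to 50 after the start of the gene, read 5′ to 3′ on the strand of the gene, from RefSeq on build GRCm38.p6. Capitals mark the CCAAT box (CCAAT), the GC box (GGGCGG) and the TATA box (TATAAA), each searched on both strands, and no 2 marked matches overlap.
Col1a2, chr6:4505368-4505667, plus strand: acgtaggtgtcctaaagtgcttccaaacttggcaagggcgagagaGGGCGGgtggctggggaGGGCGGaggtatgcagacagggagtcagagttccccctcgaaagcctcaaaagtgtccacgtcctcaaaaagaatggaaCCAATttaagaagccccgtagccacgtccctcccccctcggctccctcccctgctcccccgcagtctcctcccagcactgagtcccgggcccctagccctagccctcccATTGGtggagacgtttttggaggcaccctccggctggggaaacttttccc
Col3a1, chr1:45311288-45311587, plus strand: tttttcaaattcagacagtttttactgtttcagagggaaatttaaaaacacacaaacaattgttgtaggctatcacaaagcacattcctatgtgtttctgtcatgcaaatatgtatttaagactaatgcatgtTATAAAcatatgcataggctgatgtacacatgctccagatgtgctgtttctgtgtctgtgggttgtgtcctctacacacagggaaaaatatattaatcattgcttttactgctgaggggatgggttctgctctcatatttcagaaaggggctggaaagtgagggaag
Col4a1, chr8:11312777-11313076, minus strand: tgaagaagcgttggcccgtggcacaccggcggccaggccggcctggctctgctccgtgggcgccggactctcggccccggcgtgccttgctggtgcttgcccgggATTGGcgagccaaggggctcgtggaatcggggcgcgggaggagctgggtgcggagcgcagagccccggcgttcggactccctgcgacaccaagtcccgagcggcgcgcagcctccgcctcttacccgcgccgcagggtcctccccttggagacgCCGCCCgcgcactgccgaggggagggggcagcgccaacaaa
Col4a2, chr8:11312555-11312854, plus strand: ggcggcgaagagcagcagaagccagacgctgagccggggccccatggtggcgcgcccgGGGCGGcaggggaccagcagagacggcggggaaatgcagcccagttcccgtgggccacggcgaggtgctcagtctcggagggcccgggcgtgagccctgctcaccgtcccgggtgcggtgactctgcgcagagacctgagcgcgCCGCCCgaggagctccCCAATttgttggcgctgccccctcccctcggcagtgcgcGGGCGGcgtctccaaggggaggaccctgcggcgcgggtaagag
Col4a4, chr1:82586800-82587099, minus strand: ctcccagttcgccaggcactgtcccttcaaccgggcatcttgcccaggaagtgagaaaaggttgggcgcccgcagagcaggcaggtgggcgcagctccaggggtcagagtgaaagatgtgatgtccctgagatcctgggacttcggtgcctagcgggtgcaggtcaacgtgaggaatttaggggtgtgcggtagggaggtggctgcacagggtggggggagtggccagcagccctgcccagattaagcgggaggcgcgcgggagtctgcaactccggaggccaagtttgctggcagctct
The Col1a2 window held 2 CCAAT boxes and 2 GC boxes, and the Col3a1 window held a TATA box alone. The Col4a1 and Col4a2 genes run in opposite directions from starts 21 bases apart, so their windows share 78 bases. The Col4a4 window held none of the 3 motifs. Over 37 windows of 34 members, 35.14% held a CCAAT box, 59.46% a GC box and 13.51% a TATA box, against 37.41%, 35.66% and 13.62% of all 32851 windows. A match describes the letters and not a bound site.

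Type I collagen is the main fibre of most connective tissue, built from the chains of Col1a1 and Col1a2. Col1a2 was at 5.41, 6.11 and 6.00 in heart Sca1 cells, -2.84, 2.25 and -1.53 in heart c-kit cells and 5.48 and 5.65 in side population cells. It was at 5.69, 5.16 and 4.65 in marrow MSC, -6.08, -5.89 and -4.88 in marrow c-kit cells and 3.81 and 3.75 in cardiomyocytes. Neither c-kit population overlapped any other group, and 2 of the marrow c-kit arrays were at the fill value. The log2 difference of heart Sca1 minus marrow c-kit cells was 11.46 ± 0.96 (SE; limma adjusted p = 1.65e-06), and that of heart Sca1 minus heart c-kit cells was 6.55 ± 0.96 (adjusted p = 0.00066).

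Col1a1 did not follow Col1a2. Its levels were 4.23, 4.44 and 4.21 in heart Sca1 cells, 5.97, 5.08 and 5.90 in heart c-kit cells and -2.13 and 3.53 in side population cells. They were 3.82, 2.95 and 2.95 in marrow MSC, 4.97, 4.66 and 4.13 in marrow c-kit cells and 3.07 and 3.64 in cardiomyocytes. Both c-kit populations, lowest for Col1a2, thus lay above marrow MSC and cardiomyocytes for Col1a1 after quantile normalisation. In intensity units marrow c-kit cells, at 817, 1949 and 877, overlapped marrow MSC, at 1737, 1242 and 705. Side population replicate 1 stood alone at 6 intensity units. None of the 9 pairwise comparisons made, which did not set heart c-kit cells against side population cells or marrow MSC, called Col1a1 (heart Sca1 minus heart c-kit cells -1.36 ± 1.01, adjusted p = 0.405), and the sign of its difference between heart Sca1 and marrow c-kit cells, -0.30 ± 1.01, turned under 2 other scalings. Over the 6 group means the Pearson correlation of Col1a1 with Col1a2 was -0.58, the lowest of Col1a2 with any of the 41 other members. A single probe stood for each of the 2 genes.

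Col3a1 encodes the only chain of type III collagen, the fibre of extensible tissues such as vessels and heart. Its levels were 4.91, 4.63 and 4.07 in heart Sca1 cells, -5.02, -5.10 and -5.41 in heart c-kit cells and 4.11 and 4.39 in side population cells. They were -1.68, -2.74 and -1.05 in marrow MSC, -4.29, -4.57 and -4.50 in marrow c-kit cells and -0.39 and 2.50 in cardiomyocytes. In intensity units, heart c-kit cells were at 8, 1 and 2 and heart Sca1 cells at 3620, 2895 and 1755. Heart Sca1 cells exceeded heart c-kit cells by 9.71 ± 0.68 (SE; limma adjusted p = 1.92e-06) and marrow MSC by 6.36 ± 0.68 (adjusted p = 6e-05). Marrow MSC thus lay far below heart Sca1 cells for Col3a1, whereas for Col1a2 their difference was 0.67 ± 0.96 (adjusted p = 0.773).

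Type V collagen is incorporated into type I fibrils and starts their assembly. Col5a1 was at 4.24, 4.40 and 4.24 in heart Sca1 cells, -6.00, -5.10 and -5.41 in heart c-kit cells and 3.54 and 2.89 in side population cells. It was at 3.33, 2.35 and 2.90 in marrow MSC, -2.98, -5.89 and -5.18 in marrow c-kit cells and -0.25 and 1.42 in cardiomyocytes. The 2 c-kit populations lay below every other array. Heart Sca1 minus heart c-kit cells gave 9.80 ± 0.72 (SE; limma adjusted p = 2.23e-06), the largest collagen difference of that comparison, with 2 of the 3 heart c-kit arrays at the fill value. Col5a2, its partner chain, was at 3.57, 2.52 and 2.39 in heart Sca1 cells, -1.07, -0.12 and -3.05 in heart c-kit cells and 4.30 and 5.32 in side population cells. It was at 3.28, 2.12 and 2.80 in marrow MSC, -1.74, -2.05 and -4.50 in marrow c-kit cells and 0.25 and 1.28 in cardiomyocytes. Col5a2 was highest in side population cells, which did not overlap any other group. Col5a3, a minor chain of type V, was at 7.71, 8.14 and 7.71 in heart Sca1 cells and 3.59, -6.30 and 5.00 in heart c-kit cells. Its difference of 7.09 ± 1.98 (adjusted p = 0.0335) was lost without any of the 3 heart Sca1 arrays (up to 0.0898), and heart c-kit replicate 2 was at 1 intensity unit.

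The minor fibrillar chains differed in where they peaked. Col27a1, a chain known from cartilage, was at 5.20, 4.74 and 3.98 in heart Sca1 cells and between -4.93 and 1.81 on every other array. It was higher in heart Sca1 cells than in heart c-kit cells by 6.68 ± 1.03 (SE; limma adjusted p = 0.000934), than in side population cells by 7.10 ± 1.15 (adjusted p = 0.00323) and than in marrow MSC by 7.26 ± 1.03 (adjusted p = 0.000477). Side population cells, which overlapped heart Sca1 cells for Col1a2 and Col3a1, thus lay below them for Col27a1.

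Another set peaked in marrow MSC. Col2a1, the chain of the main cartilage collagen, was at 3.92, 5.19 and 5.88 in marrow MSC, against 0.70, 2.99 and 0.40 in marrow c-kit cells. In heart Sca1 cells it was at -0.02, 0.11 and 0.86, which is 4.68 ± 0.76 below marrow MSC (SE; limma adjusted p = 0.00123). Col11a1, which joins type II fibrils in cartilage, was at 2.27, 2.17 and -0.01 in marrow MSC, against -2.80, -3.32 and -3.87 in marrow c-kit cells. Heart Sca1 cells had Col11a1 at -2.46, -2.57 and -1.32, and the difference from marrow MSC, -3.60 ± 0.94 (adjusted p = 0.0246), was lost without heart Sca1 replicate 1 or 2 or MSC replicate 1 or 2 (up to 0.108). Col24a1, a fibrillar chain known from bone, was at 0.23, -1.42 and -1.84 in marrow MSC, against -4.93, -4.57 and -3.08 in marrow c-kit cells, at 113, 82 and 16 intensity units in marrow MSC. All 3 genes were higher in marrow MSC than in marrow c-kit cells, with 3.63 ± 0.76 for Col2a1, 4.81 ± 0.94 for Col11a1 and 3.19 ± 0.65 for Col24a1 (adjusted p of 0.00603, 0.00376 and 0.00531), and the Col24a1 call was lost with low values raised. The mean of 6 skeletal markers was 0.27 to 0.99 on the MSC arrays and 0.73 to 1.23 on the heart Sca1 arrays. That mean joins opposite members, since heart Sca1 minus marrow MSC ranged from -4.875 for Ibsp to 4.539. Of the 6, 3 were above and 3 below 0, with 1 called higher and 1 called lower. Col11a2 did not pass the F test.

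**Figure D2:**
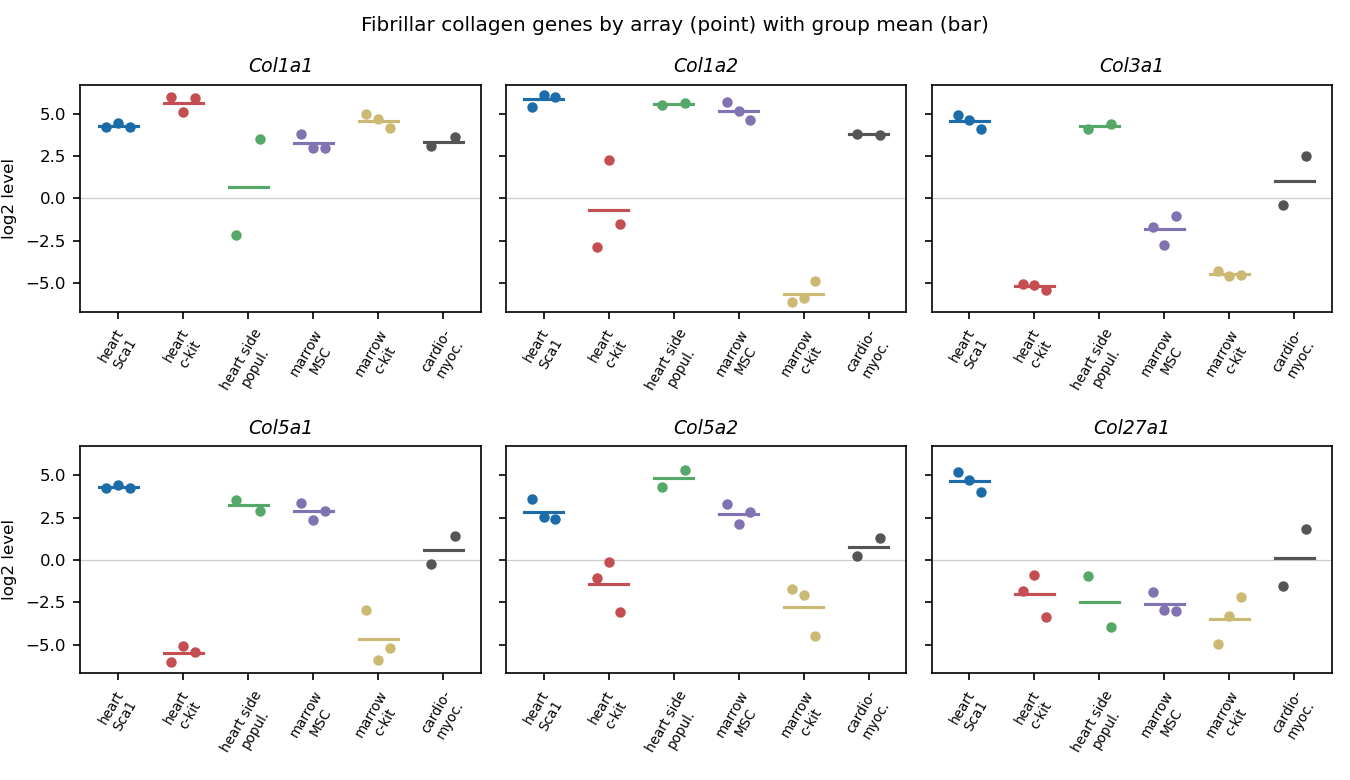
Log2 level (vertical axis) of 6 fibrillar collagen genes in the 6 cell populations (horizontal axis), with a point per array and a bar at the group mean. Col1a2, Col3a1, Col5a1 and Col5a2 are low in both c-kit populations, Col1a1 is not, Col3a1 is low in marrow MSC as well, and Col27a1 is high in heart Sca1 cells alone.

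The 6 type IV genes fell into 2 patterns. Col4a1 and Col4a2 encode the chains of the network found in nearly all basement membranes. Col4a1 was at 8.31, 9.18 and 8.56 in heart Sca1 cells, 8.11, 9.40 and 8.44 in heart c-kit cells and 6.89 and 7.67 in side population cells. It was at 4.60, 5.21 and 6.27 in marrow MSC, 1.41, 1.59 and 1.67 in marrow c-kit cells and 8.84 and 9.35 in cardiomyocytes. Every heart array lay above every marrow array, while heart Sca1 cells, heart c-kit cells and cardiomyocytes overlapped. Heart c-kit minus marrow c-kit cells gave 7.10 ± 0.57 (SE; limma adjusted p = 2.56e-06), and marrow MSC minus marrow c-kit cells 3.81 ± 0.57 (adjusted p = 0.000478). Heart Sca1 minus marrow MSC gave 3.32 ± 0.57 (adjusted p = 0.00178), a call lost under medians aligned or deposited values.

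Col4a2 was at 7.67, 7.94 and 7.86 in heart Sca1 cells, 6.53, 8.64 and 7.69 in heart c-kit cells and 5.96 and 5.58 in side population cells. It was at 6.06, 5.55 and 7.17 in marrow MSC, 2.44, 2.91 and 3.54 in marrow c-kit cells and 7.33 and 8.39 in cardiomyocytes. Marrow c-kit cells were again below all others, by 4.66 ± 0.64 against heart c-kit cells (SE; limma adjusted p = 0.000228). Between heart Sca1 and heart c-kit cells neither gene was called, with 0.03 ± 0.57 for Col4a1 (adjusted p = 0.979) and 0.20 ± 0.64 for Col4a2 (adjusted p = 0.867), and both signs turned when medians were aligned. Endothelial cells are a known source of both chains, and the part of endothelial RNA in these levels was not tested.

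Col4a3, Col4a4 and Col4a5 encode the chains of a second network, known from kidney glomeruli and lung alveoli, whose loss causes Alport syndrome. Col4a3 was at 6.82, 7.19 and 6.46 in heart Sca1 cells, 0.15, -2.08 and -0.48 in heart c-kit cells and 5.68 and 5.42 in side population cells. It was at -5.50, -2.64 and -4.02 in marrow MSC, -1.53, -0.55 and -1.26 in marrow c-kit cells and 2.29 and 4.26 in cardiomyocytes. Heart Sca1 minus marrow MSC was 10.88 ± 0.79 (SE; limma adjusted p = 4.19e-06), the largest collagen difference of that comparison, and heart Sca1 minus heart c-kit cells was 7.63 ± 0.79 (adjusted p = 4.69e-05). Col4a3 was also 2.94 ± 0.79 lower in marrow MSC than in marrow c-kit cells (adjusted p = 0.0274), a call lost without MSC replicate 1 or 3 or any of the 3 marrow c-kit arrays (up to 0.144).

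Col4a4 was at 4.56, 5.23 and 4.57 in heart Sca1 cells, 1.33, 1.64 and 1.45 in heart c-kit cells and 4.86 and 4.37 in side population cells. It was at 1.06, 0.23 and 1.99 in marrow MSC, 1.54, 1.04 and 1.75 in marrow c-kit cells and 3.02 and 2.38 in cardiomyocytes. The order of the groups was close to that of Col4a3, with heart Sca1 and side population cells on top and without overlap with the rest. Heart Sca1 minus heart c-kit cells was 3.31 ± 0.54 (SE; limma adjusted p = 0.00138). Of 2 further Col4a4 probes, both had their highest mean in heart Sca1 cells, and their correlations with the main probe over 6 group means were 0.88 and 0.61.

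Col4a5 and its neighbour Col4a6 have chains that also form a network in smooth muscle basement membranes. Col4a5 was at 5.31, 5.50 and 5.63 in heart Sca1 cells, 0.52, -1.82 and -5.41 in heart c-kit cells and 6.62 and 5.87 in side population cells. It was at -1.61, -2.50 and -3.23 in marrow MSC, -2.32, -2.26 and -1.68 in marrow c-kit cells and 3.27 and 3.60 in cardiomyocytes. Col4a6 was at 6.11, 6.64 and 6.41 in heart Sca1 cells, -3.44, -1.82 and 4.17 in heart c-kit cells and 6.28 and 6.97 in side population cells. For Col4a6, heart c-kit replicate 3 reached the cardiomyocyte levels of 3.26 and 4.43, whereas the same array read -5.41 for Col4a5. Heart Sca1 minus heart c-kit cells was 7.72 ± 1.06 for Col4a5 and 6.75 ± 1.38 for Col4a6 (SE; limma adjusted p of 0.000387 and 0.00641).

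**Figure D3:**
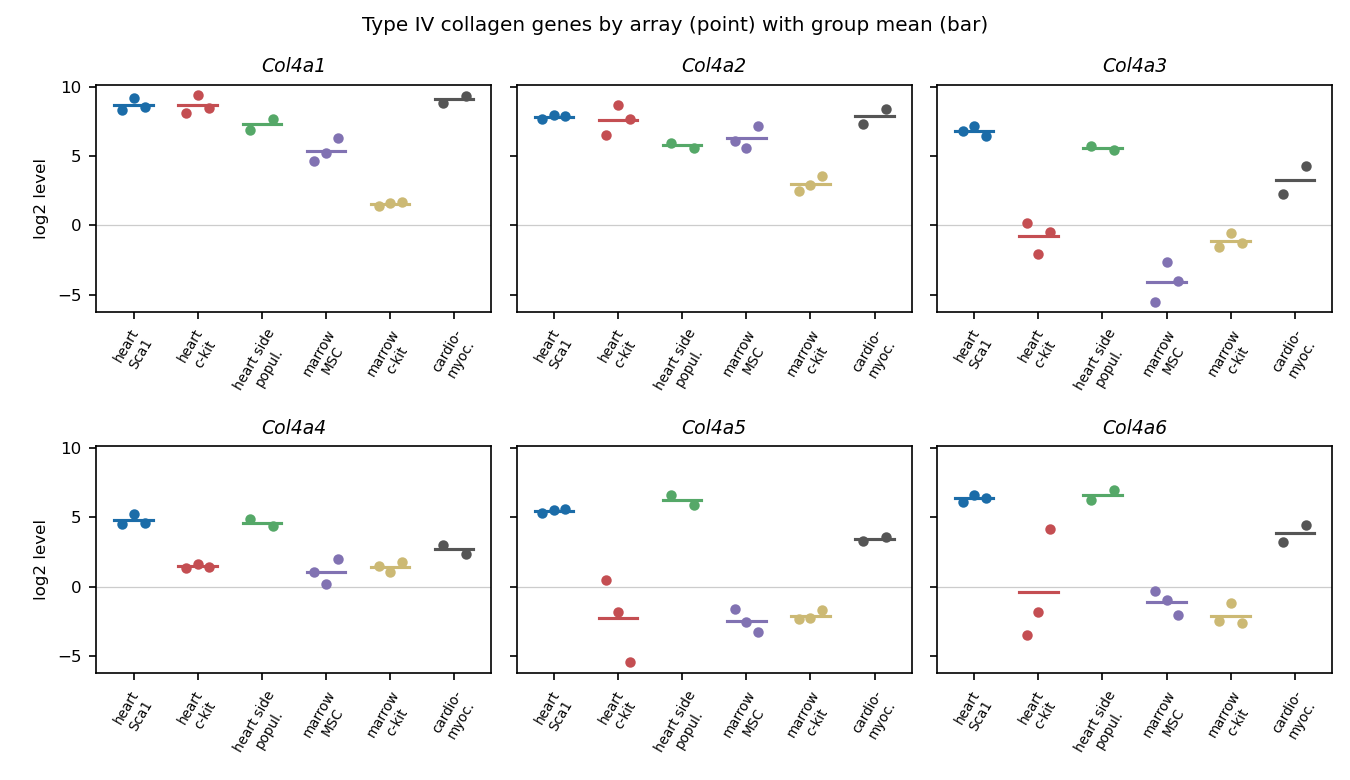
Log2 level (vertical axis) of the 6 type IV collagen genes in the 6 cell populations (horizontal axis), with a point per array and a bar at the group mean. Heart c-kit cells lie with heart Sca1 cells for Col4a1 and Col4a2 but with the marrow groups for Col4a3, Col4a4 and Col4a5.

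Type VI collagen joins cells to the surrounding matrix, and its basic unit holds the chains of Col6a1, Col6a2 and Col6a3. Col6a1 was at 6.85, 7.27 and 6.76 in heart Sca1 cells, 1.28, 0.05 and 0.51 in heart c-kit cells and 6.54 and 6.48 in side population cells. It was at 5.04, 3.73 and 5.00 in marrow MSC, 0.04, -0.43 and 0.37 in marrow c-kit cells and 3.77 and 4.70 in cardiomyocytes. Heart Sca1 cells lay above all other arrays and both c-kit populations below the remaining groups. Heart Sca1 minus heart c-kit cells was 6.35 ± 0.55 (SE; limma adjusted p = 1.17e-05).

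Col6a3 was at 5.70, 5.63 and 5.74 in heart Sca1 cells, -1.62, -6.30 and -2.34 in heart c-kit cells and 3.79 and 4.55 in side population cells. It was at 1.69, 1.54 and 3.27 in marrow MSC, -6.08, -6.36 and -6.08 in marrow c-kit cells and 3.35 and 3.25 in cardiomyocytes. The marrow c-kit arrays read 1 intensity unit each, 2 of them at the fill value. Heart Sca1 minus heart c-kit cells was 9.11 ± 0.94 (SE; limma adjusted p = 4.63e-05). Heart Sca1 minus marrow MSC was 3.52 ± 0.94 (adjusted p = 0.0281), lost without MSC replicate 1 or 2 or any of the 3 heart Sca1 arrays (up to 0.106). Col6a2 also separated the 2 populations, at 6.37, 6.59 and 6.29 in heart Sca1 cells, against 4.03, 1.56 and 0.91 in heart c-kit cells (4.25 ± 0.77, adjusted p = 0.00308).

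Col6a6, a longer chain that can take the place of the Col6a3 chain, was at 6.91, 6.76 and 6.18 in heart Sca1 cells, -0.23, -0.33 and -1.27 in heart c-kit cells and 1.11 and 2.89 in side population cells. It was at -0.06, -0.72 and -0.73 in marrow MSC, -0.31, -0.36 and -0.26 in marrow c-kit cells and 2.26 and 4.06 in cardiomyocytes. Heart Sca1 cells lay above all other arrays, by 4.62 ± 0.69 over side population cells (SE; limma adjusted p = 0.00195) and by 7.12 ± 0.62 over marrow MSC (adjusted p = 1.2e-05). A second Col6a6 probe had the same top group but a smaller gap to side population cells. Its means were 4.90 in heart Sca1 cells, 3.50 in side population cells and 2.16 in cardiomyocytes. Col6a4 did not pass the F test and was at most at 128 intensity units.

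Among the FACIT genes, 3 of 9 passed. Col14a1, whose chain coats type I fibrils, was at 6.40, 6.53 and 6.33 in heart Sca1 cells, 0.17, -0.90 and -1.27 in heart c-kit cells and 4.96 and 5.99 in side population cells. It was at -0.94, -0.35 and 0.21 in marrow MSC, -0.15, -0.94 and -0.81 in marrow c-kit cells and 4.35 and 5.07 in cardiomyocytes. Heart Sca1 cells exceeded heart c-kit cells by 7.09 ± 0.56 and marrow MSC by 6.78 ± 0.56 (SE; limma adjusted p of 4.14e-06 and 9.32e-06). The related Col12a1 ran the other way between heart Sca1 cells and marrow MSC. It was at -1.86, -1.61 and -2.26 in heart Sca1 cells, against 2.63, 1.76 and 1.96 in marrow MSC, a difference of -4.03 ± 0.72 (adjusted p = 0.0023). Marrow MSC were the only group above 0 for Col12a1, and both side population arrays were at the fill value. Col9a3, a chain of cartilage type IX collagen, was at 1.34, -0.20 and -1.42 in marrow MSC, against -6.30 and -5.50 in side population cells. Those 2 groups were not compared directly, and none of the 9 pairwise comparisons made called Col9a3. Of the 6 FACIT genes that did not pass, Col16a1 was between 3.02 and 7.54 on every array.

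Type VIII collagen forms a hexagonal network in vessel walls and under the corneal endothelium. Col8a1 was at 7.21, 7.57 and 7.05 in heart Sca1 cells, -0.08, 2.31 and 1.76 in heart c-kit cells and 6.29 and 6.67 in side population cells. It was at 5.86, 5.12 and 5.73 in marrow MSC, -6.08, -5.22 and -6.08 in marrow c-kit cells and 6.27 and 5.83 in cardiomyocytes. Marrow c-kit cells, at 1, 2 and 1 intensity units, lay 13.07 ± 0.61 below heart Sca1 cells (SE; limma adjusted p = 3.23e-08) and 11.37 ± 0.61 below marrow MSC (adjusted p = 1.61e-07), the largest collagen difference of each comparison. Col8a1 was also 7.13 ± 0.61 higher in heart c-kit than in marrow c-kit cells (adjusted p = 4.09e-06). Col8a2 was at 2.65, 3.80 and 2.77 in heart Sca1 cells, -4.56, -2.64 and -3.05 in heart c-kit cells and 4.53 and 4.38 in side population cells. It was at 3.96, 2.31 and 0.76 in marrow MSC, -4.93, -4.29 and -2.89 in marrow c-kit cells and -2.38 and 0.99 in cardiomyocytes. Both type VIII genes were thus low in the c-kit populations, and Col8a2 was highest in side population cells. Col10a1, a marker of hypertrophic cartilage, did not pass and was at most at 73 intensity units.

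Col15a1 encodes a multiplexin of the basement membrane zone that is prominent in heart and skeletal muscle. It was at 8.64, 8.99 and 8.90 in heart Sca1 cells, 4.88, 2.86 and 4.17 in heart c-kit cells and 8.33 and 6.73 in side population cells. It was at -0.01, -0.13 and 1.83 in marrow MSC, 0.32, -0.75 and 0.15 in marrow c-kit cells and 6.37 and 7.13 in cardiomyocytes. Every heart array lay above every marrow array. Heart Sca1 minus marrow MSC was 8.28 ± 0.70 (SE; limma adjusted p = 1.03e-05), and heart c-kit minus marrow c-kit cells was 4.07 ± 0.70 (adjusted p = 0.00155). The other multiplexin, Col18a1, the source of endostatin, did not pass the F test (adjusted p = 0.111).

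Of the transmembrane chains and the 2 others, Col17a1 and Col7a1 passed the F test. Col17a1, a transmembrane collagen of epithelial hemidesmosomes, was at -5.50, -5.50 and -3.45 in marrow MSC, against -0.95, 0.29 and -0.89 in marrow c-kit cells. Marrow MSC lay below all other arrays, and no array exceeded 120 intensity units. Col7a1, which forms the anchoring fibrils of skin, was at 4.72, 4.34 and 5.06 in marrow MSC and at most at 3.87 everywhere else, with 1.19, -1.49 and 0.33 in heart Sca1 cells. Heart Sca1 minus marrow MSC was -4.69 ± 0.96 for Col7a1 and 3.57 ± 0.66 for Col17a1 (SE; limma adjusted p of 0.00582 and 0.00296). The 14 members that did not pass the F test were Col9a2, Col10a1, Col28a1, Col18a1, Col11a2, Col23a1, Col13a1, Col19a1, Col20a1, Col25a1, Col9a1, Col16a1, Col6a4 and Col22a1, and 5 of these 14 exceeded 1000 intensity units on an array, against 23 of the 28 that passed.

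Chains that assemble into 1 molecule were compared over the 6 group means, as a description. Pearson correlations were 0.96 for Col4a1 with Col4a2, 0.96 for Col4a3 with Col4a4 and 0.99 for Col4a5 with Col4a6, which are neighbours on their chromosomes. Over the 16 single arrays these 3 values were 0.94, 0.90 and 0.78. The correlations over group means were 0.97 for Col6a1 with Col6a2, also neighbours, and 0.97 for Col6a1 with Col6a3. For Col5a1 with Col5a2 the value was 0.92. Col8a1 with Col8a2, listed as chains of 1 family and not of 1 molecule, gave 0.82. Type I was the exception, at -0.58. The median over all 861 pairs of members was 0.18. Neighbours whose chains share no molecule gave 0.84 for Col3a1 with Col5a2 and 0.65 for Col9a1 with Col19a1, and Col4a1 with Col4a3, chains of separate networks, gave 0.54. The 6 means share arrays and scaling, so these values have no test.

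Heart Sca1 cells were then set against heart c-kit cells, the other antigen-sorted population of the heart. Of the 42 collagen genes 18 were higher and 0 lower, and 11.2% of all genes were called. The called genes comprised 6 of 11 fibrillar, 4 of 6 type IV, 4 of 5 type VI, 2 of 3 short-chain, 1 of 9 FACIT and 1 of 2 multiplexin genes. The median log2 difference was 1.48 over the collagen genes and -0.23 over all genes. No array of one side lay within the range of the other for any of the 18. They were selected by their calls in the same arrays, so this is no further evidence, and the share of all genes without overlap was not counted. The fibroblast marker mean also separated them, at 6.85 to 7.16 in heart Sca1 cells and 0.75 to 4.45 in heart c-kit cells, and the endothelial mean was 0.76 to 5.06 and 4.14 to 5.15. With any single array left out, 17 of the 18 calls held, all but that of Col5a3.

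Heart Sca1 cells were also set against side population cells, a group of 2 arrays. Heart Sca1 cells had 3 collagen genes higher and 0 lower than side population cells, namely Col27a1, Col6a6 and Col12a1, where 6.88% of all genes were called, a share near that of the members. With medians aligned the split became 2 higher and 2 lower. The Col12a1 call (adjusted p = 0.024), with both side population arrays at the fill value, was lost without any of the 5 arrays compared (up to 0.0819).

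Against marrow MSC, heart Sca1 cells had 13 collagen genes higher and 5 lower, where 10.3% of all genes were called. The labels give passages for marrow MSC alone, so cell source and passage history cannot be told apart. The 13 were Col3a1 and Col27a1, all type IV genes but Col4a2, 3 of type VI (Col6a1, Col6a3 and Col6a6), Col14a1, Col15a1 and Col17a1. The 5 were the cartilage or bone chains Col2a1, Col11a1 and Col24a1 with Col12a1 and Col7a1. With any single array left out 14 of the 18 calls held, and 12 also held under every alternative that kept the gene. With the lowest 30% of genes removed 14 were called, and called genes among those removed were not tested there. Besides Col6a3 and Col11a1, the call of Col6a1 was lost without MSC replicate 2 or heart Sca1 replicate 2 (up to 0.0744) and that of Col24a1 without MSC replicate 1 (0.0633). The median log2 difference was 1.24 over the collagen genes and -0.10 over all genes. The differences of Col1a2 (0.67 ± 0.96), Col5a2 (0.09 ± 0.85) and Col8a1 (1.71 ± 0.61) were not called. The fibroblast marker mean was 6.85 to 7.16 in heart Sca1 cells and 0.79 to 1.84 in marrow MSC, and the leukocyte mean was -0.05 to 2.74 and 6.07 to 6.64. All 7 fibroblast markers were higher in heart Sca1 cells and 4 were called, but the gaps were uneven. Group means in heart Sca1 cells and marrow MSC were 7.93 and -4.68 for Dpt but 6.43 and 5.98 for Pdgfrb.

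Heart Sca1 cells against marrow c-kit cells gave the most collagen calls, with 20 collagen genes higher and 0 lower, where 16.5% of all genes were called. They included all 6 type IV genes, 6 of 11 fibrillar, 4 of 5 type VI and both type VIII genes. The median was 2.40 over the collagen genes and -0.27 over all genes. With any single array left out, 19 of the 20 calls held, all but that of Col5a3.

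Marrow MSC against marrow c-kit cells addressed the difference within marrow, where 11% of all genes were called. Cell type and the passage of marrow MSC cannot be told apart in it. Of the collagen genes 16 were higher and 2, Col4a3 and Col17a1, lower. Fibrillar genes contributed 7 of the 16, with Col1a2 at 10.78 ± 0.96 and Col5a1 at 7.54 ± 0.72 (SE; limma adjusted p of 5.37e-06 and 9.64e-06). Type IV contributed Col4a1 and Col4a2 but none of Col4a4, Col4a5 and Col4a6. Further probes of these 3 genes differed among themselves, at 5.69 for Col4a5, -4.29 and -0.38 for Col4a4 and -1.43 for Col4a6, and with the mean over probes Col4a5 was called higher as well. With any single array left out 14 of the 18 calls held, and 12 also held under every alternative that kept the gene. With the lowest 30% of genes removed 14 were called, and called genes among those removed were not tested there. Besides Col4a3, the call of Col3a1 was lost without MSC replicate 1 or 3 or any of the 3 marrow c-kit arrays (up to 0.114), that of Col6a2 without any of 8 arrays (up to 0.175) and that of Col7a1 without MSC replicate 1 or 3 or marrow c-kit replicate 2 (up to 0.0617).

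**Figure D4:**
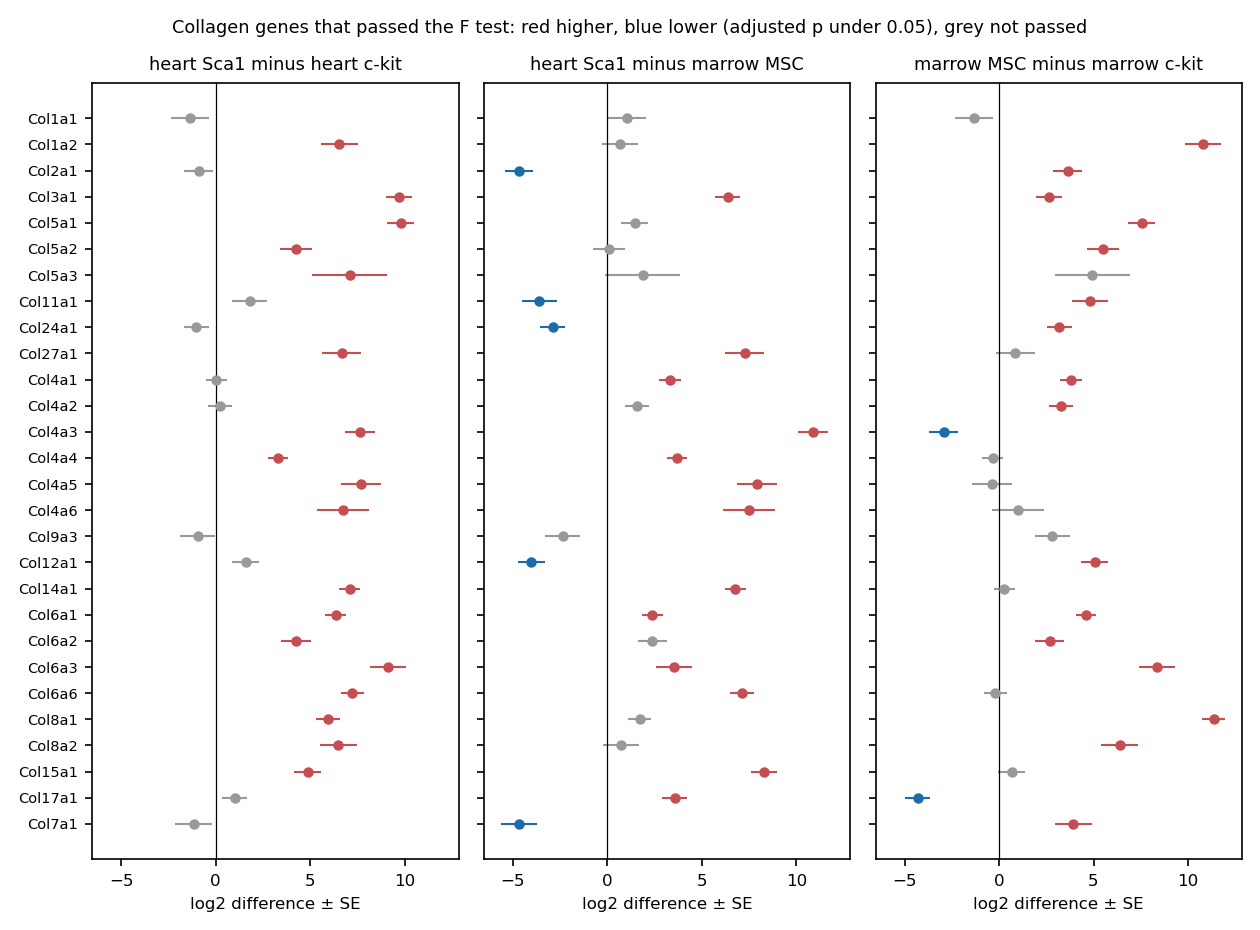
Log2 difference with its standard error (horizontal axis) for each of the 28 collagen genes that passed the F test (rows), in 3 comparisons. Red points were called higher and blue points lower in the first-named population, and grey points were not called; all 18 calls of heart Sca1 minus heart c-kit cells are to the right of 0.

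The 2 c-kit populations, which share the sorting antigen, differed in few collagen genes. Heart c-kit cells had 5 higher and 0 lower than marrow c-kit cells, where 10.8% of all genes were called. The 5 were Col4a1, Col4a2, Col8a1, Col15a1 and Col1a2, and all 5 held with any single array left out. The Col1a2 call was lost with low values raised and in a fit of these 2 groups alone. The share of members, 5 of 42, is near that of all genes. The endothelial marker mean was 4.14 to 5.15 in heart c-kit cells and -0.13 to 0.20 in marrow c-kit cells.

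Comparisons with cardiomyocytes rest on 2 control arrays whose replicates read 88 and 866 intensity units for Col3a1 and whose fibroblast marker means were 5.13 and 6.02. Heart Sca1 cells had 0 collagen genes called against them, where 0% of all genes were called by limma. At an unadjusted p under 0.05 there were 13 collagen genes and 2068 genes in all, and once values under the 30th percentile were raised to it 8 collagen genes were called, all higher. Heart c-kit cells had 10 collagen genes lower and 0 higher than cardiomyocytes, where 3.6% of all genes were called. These were Col3a1 (-6.23 ± 0.76, adjusted p = 0.000605), Col14a1 (-5.38 ± 0.62, adjusted p = 0.000446), Col5a1, Col6a1, Col6a3, Col6a6, Col4a3, Col4a5, Col8a1 and Col1a2. A fit of these 2 groups alone called none of the 10, and 5 calls, among them Col3a1 and Col14a1, held with any single array left out. Side population cells had 3 higher and 0 lower than cardiomyocytes, where 5.2% of all genes were called. They were Col8a2 (5.15 ± 1.18, adjusted p = 0.025), Col5a2 (4.05 ± 1.05, adjusted p = 0.0402) and Col3a1 (3.20 ± 0.84, adjusted p = 0.0418). Each call was lost on leaving out certain single arrays, any of 3 for Col8a2, of 10 for Col5a2 and of 11 for Col3a1. These 3 comparisons share the cardiomyocyte arrays.

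The difference between heart and marrow was compared between the c-kit pair and the pair of heart Sca1 cells and marrow MSC with an interaction contrast. It was called for 14 collagen genes, 5 above and 9 below 0, where 7.46% of all genes were called. Col4a3 was the largest, since heart c-kit cells exceeded marrow c-kit cells by 0.31 whereas heart Sca1 cells exceeded marrow MSC by 10.88 (interaction -10.57 ± 1.12, adjusted p = 9.28e-05). Col4a1 went the other way, with 7.10 for the c-kit pair and 3.32 for the second pair (interaction 3.77 ± 0.80, adjusted p = 0.0107). The marrow MSC had been passaged, so organ and culture history cannot be told apart in this contrast.

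Collagen chains are modified, trimmed and cross-linked by enzymes and bound by receptors, and 40 such genes of a listed 41 were measured. The F test called 11 of 17 for folding and hydroxylation, 5 of 8 for propeptide removal, 5 of 5 for cross-linking and 6 of 10 receptors, where 31.9% of all genes were called. Heart Sca1 cells had 17 of the 40 higher and 1 lower than heart c-kit cells (11.2% of all genes called). The largest were Mrc2, an endocytic collagen receptor (5.99 ± 0.79), Pcolce, which enhances removal of the carboxy-terminal propeptide (5.90 ± 0.60), and Loxl1, a lysyl oxidase (5.36 ± 0.73), with limma adjusted p of 0.000296, 4.24e-05 and 0.000382. Against marrow MSC 8 were higher and 3 lower in heart Sca1 cells (10.3% of all genes called), led by Lair1, an inhibitory collagen receptor of leukocytes (-5.62 ± 1.32), P4ha3, a prolyl hydroxylase subunit (-4.65 ± 0.91), and Colgalt2, which adds galactose to hydroxylysine (4.53 ± 0.57).

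Against marrow c-kit cells 24 of the 40 were higher and 1 lower in heart Sca1 cells (16.5% of all genes called), led by Mrc2 (10.08 ± 0.79), Serpinh1, the collagen chaperone HSP47 (8.61 ± 0.54), and Lox, lysyl oxidase (8.49 ± 1.17). Marrow MSC had 20 higher and 2 lower than marrow c-kit cells (11% of all genes called), led by Lox (10.39 ± 1.17), Mrc2 (9.18 ± 0.79) and Serpinh1 (8.18 ± 0.54). Heart c-kit cells had 9 higher and 0 lower than marrow c-kit cells (10.8% of all genes called), led by Serpinh1 (7.17 ± 0.54), P4ha2, a prolyl hydroxylase subunit (5.98 ± 0.87), and Pcolce2, a relative of Pcolce (4.38 ± 0.69). Against cardiomyocytes, heart Sca1 cells had 0 of the 40 called. Heart c-kit cells had 6 lower (3.6% of all genes called), led by Mrc2 (-4.53 ± 0.88), Adamts14, an enzyme of amino-terminal propeptide removal (-4.46 ± 0.83), and Itga1, an integrin chain that binds collagen (-4.27 ± 0.91). Side population cells had Adamts14 alone lower (-3.97 ± 0.91), where 5.2% of all genes were called. Adamts14 was the only one called between heart Sca1 and side population cells, and it was higher in heart Sca1 cells (4.84 ± 0.83, with 6.88% of all genes called). The interaction called 3 above and 2 below 0 (7.46% of all genes called), led by P4ha2 (7.20 ± 1.23) and Serpinh1 (6.73 ± 0.77), with Colgalt2 the largest below 0 (-3.88 ± 0.81).

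**Figure D5:**
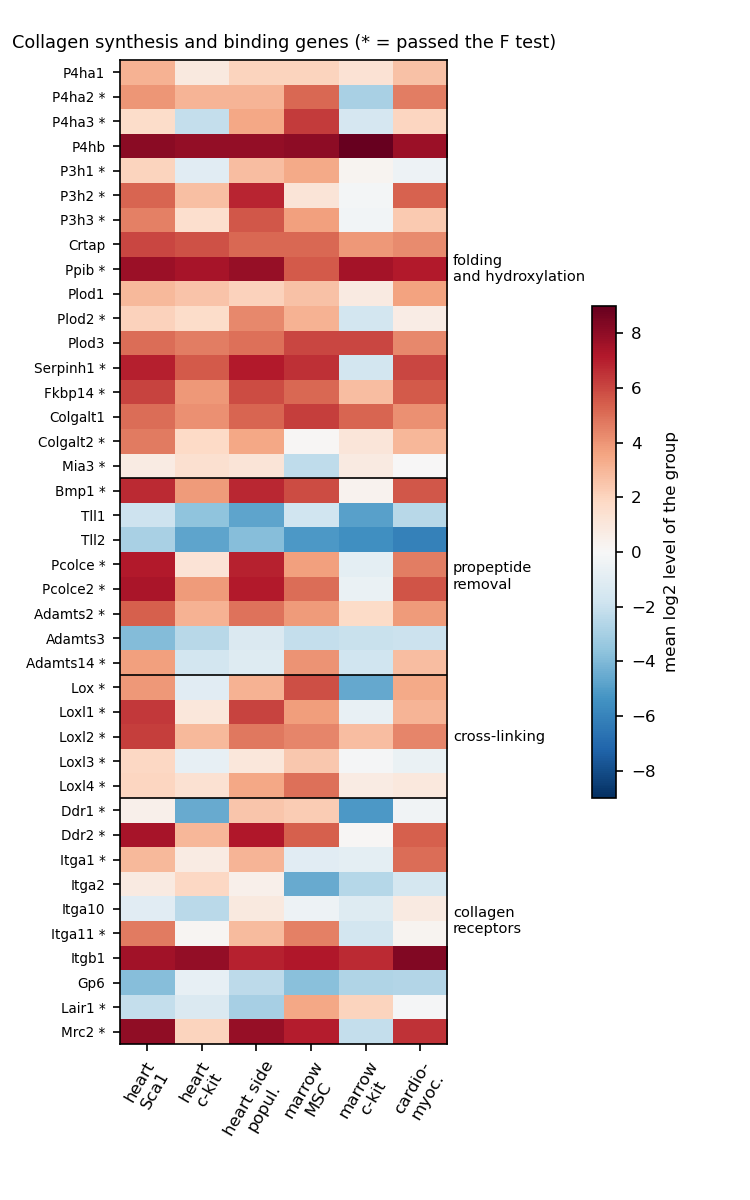
Mean log2 level of 40 genes of collagen folding and hydroxylation, propeptide removal, cross-linking and collagen binding (rows) in the 6 cell populations (columns). An asterisk marks genes that passed the F test, and colours are to be read along a row; Serpinh1 and Lox are blue in marrow c-kit cells and red in marrow MSC.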

How the data were processed

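The authors deposited log2 values of Cy5 spot intensities of amplified cDNA, each array centred to a mean near 0 (MSC replicate 3 to 0.300). That was read from the values; the Cy5 channel and the amplification are per the labels and the series text. How background was handled, and why a fill value repeats, is not given here. All 26423 probes of 16 arrays were quantile normalised (limma 3.58.1, R 4.3.3), with no pseudocount and no filter on low values. Of these probes 20377 had a symbol, 18213 matched as a current symbol and 2126 as a synonym in RefSeq, and 38 ambiguous ones were left out, which gave 17710 genes. A linear model of 6 group means was fitted with empirical Bayes moderation (prior degrees of freedom 3.81, residual 10), with Benjamini-Hochberg adjustment over 17710 genes. Each ± beside a difference is an SE. The fit was tested on simulated data. The number of arrays limits the precision. Genes named with values were members called in the F test or a comparison, chains that form 1 molecule, Col3a1, and at most 3 companion genes a comparison by size. Col6a4, Col10a1, Col16a1 and Col18a1, outside that rule, were named after their values were seen. The members and lists were chosen with earlier results of these data known. Alternatives were aligned medians, deposited values, removal of the lowest 30% of genes, low values raised to the 30th percentile, the mean over probes, a replicate block, array weights, only the groups compared, each array left out and, chosen after seeing the data, the 3 dimmest arrays left out.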

Additional observations from a re-analysis of the deposited data

Results flagged for a closer look

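The interaction (heart c-kit minus marrow c-kit cells, less heart Sca1 cells minus marrow MSC) was past the threshold for 14 collagen genes, which means that the difference between heart and marrow was not the same in both pairs. For 9 genes it was below 0 by limma. It was -10.57 for Col4a3, with 0.31 in the c-kit pair and 10.88 in the second pair. It was -8.08 for Col4a5 (-0.15 and 7.93), -7.42 for Col6a6 (-0.30 and 7.12) and -7.08 for Col3a1 (-0.72 and 6.36). It was -6.82 for Col14a1 (-0.03 and 6.78), -5.82 for Col27a1 (1.44 and 7.26) and -5.30 for Col17a1 (-1.73 and 3.57). It was -4.21 for Col15a1 (4.07 and 8.28) and -3.66 for Col4a4 (0.03 and 3.69). In 7 of these 9 genes the c-kit pair was thus within 1.5 of 0 while heart Sca1 cells exceeded marrow MSC.

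For 5 genes it was above 0. It was 3.77 for Col4a1 (7.10 in the c-kit pair and 3.32 in the second) and 5.42 for Col8a1 (7.13 and 1.71), which were positive in both pairs, although the second value of Col8a1 was not called (adjusted p = 0.101). It was 4.21 for Col24a1 (1.31 and -2.90), 4.53 for Col2a1 (-0.15 and -4.68) and 5.10 for Col7a1 (0.41 and -4.69), which were lower in heart Sca1 cells than in marrow MSC. With any single array left out 10 of the 14 calls held. Under the other settings, the calls of Col4a1, Col4a4 and Col15a1 were lost with medians aligned, those of Col4a1 and Col7a1 with deposited values, those of Col8a1 and Col24a1 with low values raised and that of Col24a1 with the mean over probes. Only 6 of the 14 held under every alternative. With arrays left out, that of Col2a1 was lost without any of 5 arrays, of Col7a1 without any of 8, of Col15a1 without any of 3 and of Col27a1 without any of 7.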

How the results depend on the processing

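Of 2908 recomputed values of 117 named differences, 2724 kept direction and side of the threshold, 169 lost the call, 7 gained it and 8 changed sign. Removal of the lowest 30% of genes left 106 of the 117 to recompute. The sign changes were all in uncalled differences of heart Sca1 cells. Col1a1 against marrow c-kit cells became 0.54 with medians aligned and 0.37 with deposited values. Col4a1 against heart c-kit cells became -0.42 with medians aligned, -0.24 without heart c-kit replicate 1, -0.08 without heart c-kit replicate 3 and -0.22 without heart Sca1 replicate 2. Col4a2 became -0.25 with medians aligned and -0.34 without heart c-kit replicate 1. With an array left out these 2 ranged up to 0.41 (Col4a1) and 0.71 (Col4a2). Counts of called collagen genes moved by over 1.5 times only in comparisons with cardiomyocytes or side population cells. Side population cells minus cardiomyocytes, 3 as fitted, gave 16 with medians aligned (where the median of all genes was 1.34, against -1.29 for heart Sca1 minus side population cells, -0.73 for heart Sca1 minus heart c-kit cells and 0.83 for heart c-kit cells minus cardiomyocytes), 5 with deposited values, 7 with low values raised, 0 with array weights, 0 in a fit of the groups compared and 0 to 4 with an array left out. Heart c-kit cells minus cardiomyocytes, 10 as fitted, gave 4 with medians aligned, 5 with deposited values, 0 in a fit of the groups compared and 5 to 11 with an array left out (5 without cardiomyocyte replicate 2). Heart Sca1 cells minus cardiomyocytes, 0 as fitted, gave 8 with low values raised and 0 to 1 with an array left out. Heart Sca1 minus side population cells, 3 as fitted, gave 0 in a fit of the groups compared. The cause was not tested. The all-gene counts behind the percentages ranged from 0 to 326, 3 to 1114, 0 to 2619 and 176 to 1707 in these 4 comparisons, from 786 to 2532 for heart Sca1 minus heart c-kit cells, and from 1156 to 4267 and 1216 to 4367 for heart Sca1 cells minus marrow MSC and marrow MSC minus marrow c-kit cells. They ranged from 1079 to 2295 for heart c-kit minus marrow c-kit cells, from 2237 to 4663 for heart Sca1 minus marrow c-kit cells and from 832 to 1897 for the interaction. With a replicate block the collagen counts were 27 by the F test, 9 for heart c-kit cells minus cardiomyocytes and 2 for side population cells minus cardiomyocytes, and 18, 3, 18, 20, 5, 18 and 14 in the other comparisons that had calls. After the group means were subtracted, the remainders of same-numbered arrays of different groups correlated with a median of 0.01 (-0.18 to 0.40). Of 36 such pairs 4 exceeded 0.1. The remainders of differently numbered arrays correlated at -0.40 to 0.32, and 10 of 70 such pairs exceeded 0.1. The labels do not say whether same-numbered samples were paired, and these correlations cannot settle it. The 3 dimmest arrays include both side population arrays, so leaving them out gave no check of the side population comparisons. Of the 111 remaining differences 110 kept their call and direction. Low signal over background limits every gene near the fill value, where sizes are uncertain.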
